A study of Mus musculus with 6 samples.

Results

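The genes that build heme were measured in mouse acute erythroid leukemia (AEL): Alas1, Alas2, Alad, Uros, Urod, Cpox, Ppox and Fech, which encode enzymes of the pathway, and Slc25a38, a mitochondrial carrier that brings in glycine. They were taken by symbol from a table of 13007 genes, in which all 9 were found, and all 9 passed the filter on low counts that left 12427 genes for testing. The enzyme between Alad and Uros is not analysed here. Poly-A RNA was sequenced from 3 AEL and 3 NC libraries of C57BL/6 mouse bone marrow. AEL libraries came from leukemic marrow cells transduced to overexpress ERG together with GFP, an ETS transcription factor and a fluorescent marker, and sorted as GFP+; their genotype label is Trp53-/-ERG-expressing. NC libraries came from marrow labelled WT that was sorted as erythroid precursors with stains for Ter119, which marks the red cell lineage, and CD71, through which cells take up iron. The tissue label of all 6 libraries, NC included, names mutations of SETBP1 and ASXL1, at odds with the WT genotype, and the labels do not settle this. The labels give no ages. They call the replicates biological but do not say whether these were separate animals. The p-values therefore set the group difference against the spread of these samples only, and may not extend to other animals.

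Heme is an iron-containing ring that carries oxygen in hemoglobin and electrons in cytochromes. Its synthesis starts in the mitochondrion, where an ALA synthase joins glycine and succinyl-CoA, continues in the cytosol, and returns to the mitochondrion, where ferrochelatase inserts the iron. ALAS1 is the ALA synthase of most tissues and ALAS2 that of red cell precursors, which make most of the body's heme as they mature; ALAS2 is the usual rate-setting step there.

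Library totals ran from 8171676 to 9945330 counts, and the spread between replicates was wider in AEL (biological coefficient of variation 44.1%) than in NC (9.01%). Erg averaged 677 ± 117 CPM (counts scaled to a common library total) in the 3 AEL libraries and 6.82 ± 2.17 CPM in the 3 NC libraries (± SD). Trp53 was at 975 to 1171 CPM in AEL and 162 to 177 CPM in NC; whole-gene counts do not resolve the targeted segment, so this does not check the Trp53-/- label. All 8 erythroid markers examined were detected in both groups, with a summed level of 2886 to 4273 CPM in AEL and 9079 to 10818 CPM in NC, and 6 of the 8 fell. Over all genes tested 29.0% fell and 23.9% rose, at an edgeR adjusted p under 0.05. Markers of other marrow cells moved with the groups as well. The 8 neutrophil genes summed to 16.9 to 1014 CPM in AEL and 7355 to 8544 CPM in NC, and 8 of 8 fell. The 8 macrophage genes summed to 1.35 to 21.8 CPM in AEL and 2511 to 2924 CPM in NC, 8 of 8 fell, and Spic and Timd4 were at 0 in every AEL library. The 7 B cell genes summed to 1.58 to 2.19 CPM in AEL and 184 to 219 CPM in NC, and 7 of 7 fell; both T and NK cell genes in the table fell, as did 2 of 4 mast cell and eosinophil genes. Of 4 tested megakaryocyte genes 2 fell and 1 rose, with sums of 41.3 to 256 CPM in AEL and 76.1 to 95.9 CPM in NC. Their part in the results below was not tested.

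Of the 9 heme synthesis genes 7 fell in AEL and 0 rose (edgeR quasi-likelihood test, Benjamini-Hochberg adjusted p under 0.05 over all genes), while 29.0% of all genes tested were called lower, 23.9% higher and 52.8% either way. With library totals alone as the scaling, the calls over all genes split into 3080 lower and 3800 higher, against 3599 lower and 2964 higher with TMM scaling, and the members' count was 7 again. Every fitted fold change of the 9 was negative, so the count of higher members was also 0 at an unadjusted p under 0.05, by DESeq2 and by limma. The falls were uneven along the pathway: Alas2 was 11.2-fold lower and Uros 8.44-fold lower, whereas Cpox was 1.45-fold lower and did not pass. The median log2 fold change of AEL over NC was -1.89 over the 9 genes and -0.05 over all genes tested. For all 9 genes every AEL library lay below every NC library, as it did for 36.1% of all genes tested; the reverse order held for 29.9% of them and for 0 of the 9. In these bulk samples, fewer cells of a type and less RNA per cell cannot be told apart, and the groups were sorted on different markers.

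**Figure D1:**
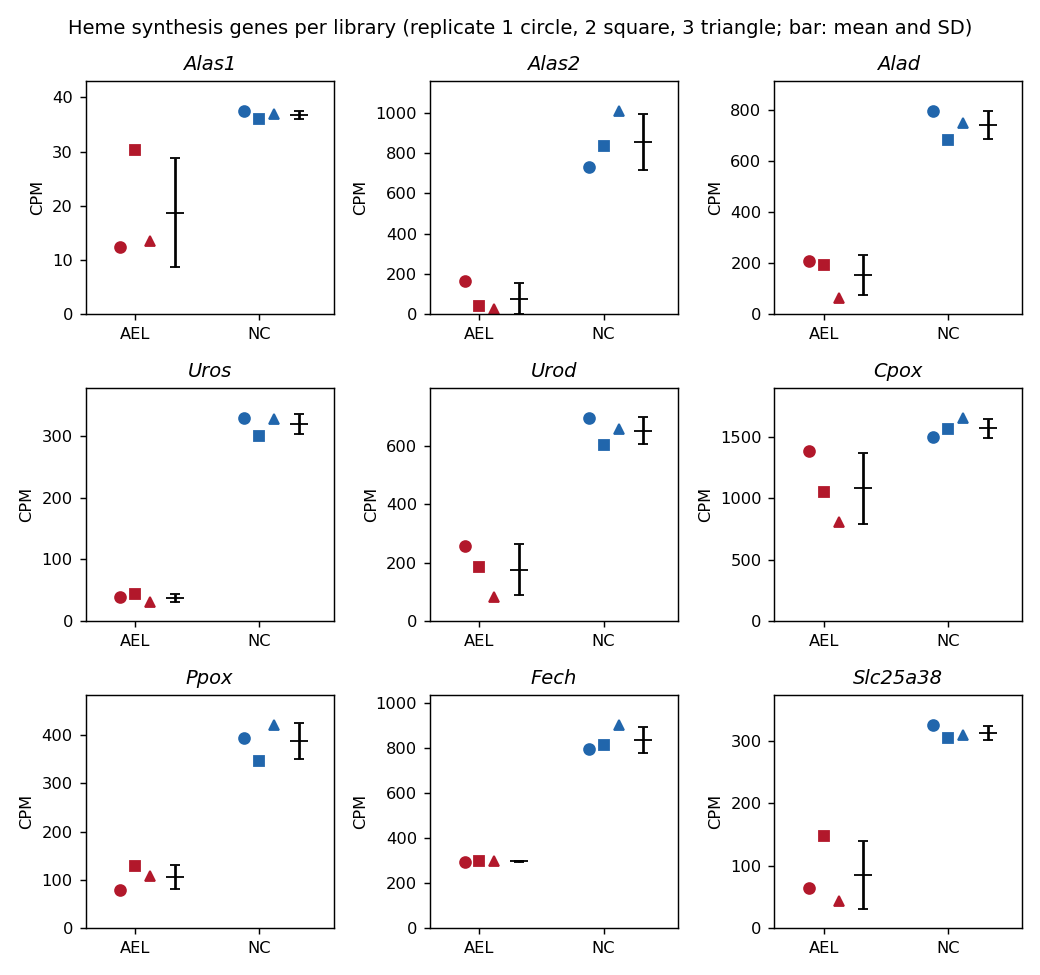
CPM of each gene in every library, AEL left and NC right, on linear axes from 0; the bar beside each group is its mean and SD (n = 3). No AEL point reaches an NC point in any panel, and the gap is, in proportion, narrowest for Cpox, at 1381 CPM in AEL replicate 1 and 1493 CPM in NC replicate 1.

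The summed level of the 9 genes was 2501, 2113 and 1473 CPM in AEL replicates 1, 2 and 3, against 5595, 5480 and 6059 CPM in NC replicates 1, 2 and 3. The AEL mean was thus 0.355 of the NC mean, and the groups did not overlap (two-sided exact permutation test, p = 0.1, the smallest that 3 against 3 libraries allow). The make-up of the sum differed as well. Cpox reads made up 49.7% to 55.2% of it in AEL and 26.7% to 28.5% in NC, and Alas2 reads 1.64% to 6.64% in AEL and 13.1% to 16.6% in NC (p = 0.1 for either share in the same exact permutation test).

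Alas2, the erythroid ALA synthase (chrX:150547375-150570638, plus strand, in GRCm38 as GENCODE M21 places it, like the positions that follow), had the deepest fitted fall of the 9 and the widest spread among AEL libraries. It was at 166, 40.3 and 24.1 CPM in AEL replicates 1, 2 and 3, against 731, 834 and 1007 CPM in NC replicates 1, 2 and 3. AEL replicate 1 held the most Alas2 of the AEL libraries, 6.88 times that of replicate 3, and still lay far below the lowest NC library. The log2 fold change was -3.48 (SE 0.72, edgeR adjusted p = 0.00709), and -4.64 without AEL replicate 1. Given that SE, its order with Uros, at -3.08 (SE 0.16), is not set. In AEL replicate 1 Uros stood further below its NC mean, at -2.99 against -2.35 for Alas2 on a log2(CPM + 1) scale.

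Alas2 mRNA is known to carry an iron-responsive element near its 5′ end, a hairpin bound by iron regulatory proteins, which hold back its translation when iron is scarce. The element is shown because it ties this gene, alone among the 9, to the iron sensors described further on; the capitals mark the 6-base loop of a form made of a bulged C, a 5-base-pair stem (G-T pairs allowed) and a CAGTGN loop. It lies in the annotated 5′ untranslated region of the first listed Alas2 transcript (GENCODE M21, plus strand), with 6 flanking bases on either side.
Alas2 element: ttggttcgtcctCAGTGCagggcaacagg
Of 11284 genes of the table with an annotated 5′ untranslated region, 23 (0.204%) held this form, and among the 9 members Alas2 was the 1 that did. The match describes the sequence and says nothing of how much protein was made.

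Alas1, the ALA synthase of most tissues (chr9:106233455-106248654, minus strand), had the fewest reads of the 9 in either group. Its level was 12.5, 30.3 and 13.4 CPM in AEL replicates 1, 2 and 3, against 37.4, 36.0 and 36.8 CPM in NC replicates 1, 2 and 3. AEL replicate 2 came close to the NC libraries and the other AEL libraries did not. With SE 0.36, the fitted log2 value of -0.97 missed the threshold in edgeR (adjusted p = 0.0554). It passed without AEL replicate 2, at -1.43 (edgeR adjusted p = 0.000827), and with all libraries in DESeq2 (adjusted p = 0.0237) and limma (adjusted p = 0.0304).

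The balance of the isozymes was compared per kilobase of exon. Alas2 had 25.8, 2.58 and 3.49 times the per-kilobase level of Alas1 in AEL replicates 1, 2 and 3, against 38.0, 45.0 and 53.1 times in NC replicates 1, 2 and 3. On this measure Alas2 had the larger share in all 6 libraries. It held 72.1% to 96.3% of the summed per-kilobase level in AEL and 97.4% to 98.2% in NC. The measure rests on exon unions of 2037 bases for Alas2 and 3959 bases for Alas1. In plain reads the ratio was 13.3, 1.33 and 1.80 in AEL replicates 1, 2 and 3, against 19.5 to 27.3 in NC. Reads of Apex2, an overlapping gene described further on, may add to Alas2 where it is low, and this was not tested. On the log2 scale the ratio of Alas2 to Alas1 (1 CPM added to each) averaged 1.61 ± 1.76 in AEL and 4.49 ± 0.24 in NC (SD, n = 3 each). That is a difference of -2.88, and the groups did not overlap (two-sided exact permutation test, p = 0.1, the smallest possible). AEL replicate 1, at 3.63, lay much nearer the lowest NC value of 4.25 than did replicates 2 and 3, at 0.40 and 0.80.

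**Figure D2:**
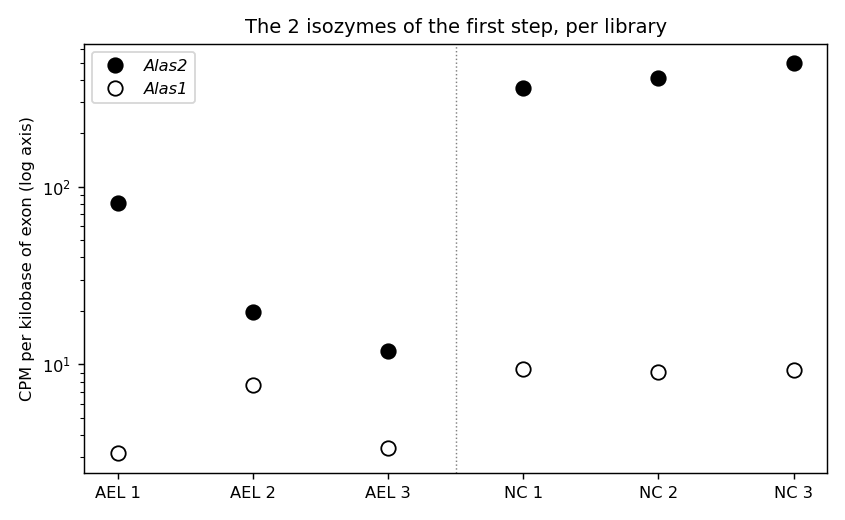
Level of Alas2 (filled) and Alas1 (open) in CPM per kilobase of exon on a log axis, in each AEL library (left) and each NC library (right), 1 point per library. The gap between the isozymes is narrow in AEL replicates 2 and 3, where the ratio is 2.58 and 3.49, and wide in NC, where it is 38.0 to 53.1.

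Slc25a38 (chr9:120110374-120124504, plus strand) imports the glycine that the first step uses, and its loss causes a sideroblastic anemia in humans. It was at 64.0, 147 and 43.4 CPM in AEL replicates 1, 2 and 3, against 326, 305 and 310 CPM in NC replicates 1, 2 and 3. As with Alas1, AEL replicate 2 was the highest of the AEL libraries, yet it did not reach the NC range. Its fall was -1.89 on the log2 scale (SE 0.43, edgeR adjusted p = 0.0098), and -2.49 without AEL replicate 2.

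The cytosolic enzymes Alad, Uros and Urod all fell. Alad (chr4:62509169-62519918, minus strand), which joins ALA molecules into porphobilinogen, was at 207, 192 and 63.3 CPM in AEL replicates 1, 2 and 3, against 794, 682 and 748 CPM in NC replicates 1, 2 and 3. AEL replicate 3 was the lowest, below the other AEL libraries by a wide margin. The log2 fold change of Alad was -2.27 (SE 0.42, edgeR adjusted p = 0.00456). Urod (chr4:116989965-116994413, minus strand), which removes carboxyl groups from uroporphyrinogen, was at 257, 185 and 84.1 CPM in AEL replicates 1, 2 and 3, against 695, 604 and 658 CPM in NC replicates 1, 2 and 3. The libraries stood in the same order as for Alad, and the log2 fold change was -1.89 (SE 0.38, edgeR adjusted p = 0.00591).

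Uros (chr7:133686243-133710072, minus strand), which closes the ring as uroporphyrinogen III, had the deepest fitted fall after Alas2 and a far more even one. Its level was 39.3, 43.5 and 30.5 CPM in AEL replicates 1, 2 and 3, against 328, 300 and 327 CPM in NC replicates 1, 2 and 3. The highest AEL library was 1.43 times the lowest, while the same ratio was 6.88 for Alas2. Its log2 fold change was -3.08 (SE 0.16, edgeR adjusted p = 9.21e-05), the smallest adjusted p of the 9.

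The last enzymes act in the mitochondrion, and among them Cpox stood apart from Ppox and Fech. Cpox (chr16:58670292-58717636, plus strand), coproporphyrinogen oxidase, was at 1381, 1051 and 808 CPM in AEL replicates 1, 2 and 3, against 1493, 1561 and 1648 CPM in NC replicates 1, 2 and 3. Every AEL library was below every NC library, but the fitted difference of -0.54 on the log2 scale, SE 0.20, missed the threshold in edgeR (adjusted p = 0.0601). It passed without AEL replicate 1, at -0.65 (edgeR adjusted p = 0.0113), and with all libraries in DESeq2 (adjusted p = 0.021) and limma (adjusted p = 0.0475). Quantile normalization left -0.08 (limma adjusted p = 0.744). Of 16 alternatives Cpox passed in 4 and not in 12.

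Ppox (chr1:171275990-171281186, minus strand), protoporphyrinogen oxidase, was at 79.6, 128 and 108 CPM in AEL replicates 1, 2 and 3, against 395, 347 and 421 CPM in NC replicates 1, 2 and 3. Its groups lay far apart, and its log2 fold change was -1.88 (SE 0.19, edgeR adjusted p = 0.000595). Fech, the ferrochelatase gene on chromosome 18, was at 294, 296 and 298 CPM in AEL replicates 1, 2 and 3, against 795, 812 and 902 CPM in NC replicates 1, 2 and 3. The AEL libraries were nearly identical for this gene, the highest being 1.01 times the lowest, although they spread widely for Alas2, Alad and Urod. The log2 fold change of Fech was -1.50 (SE 0.11, edgeR adjusted p = 0.000199).

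**Figure D3:**
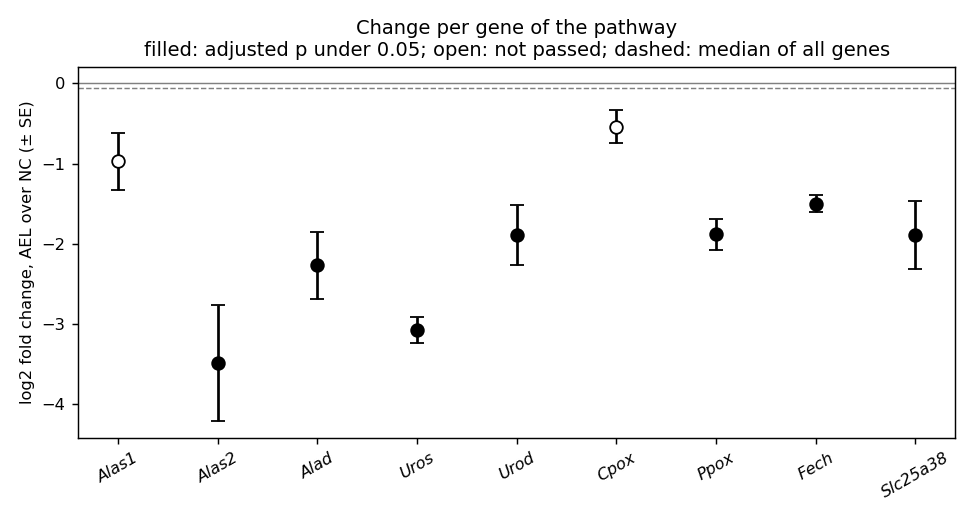
Fitted log2 fold change of AEL over NC with its SE for each gene, in the order of the pathway with the glycine carrier last; filled points passed an edgeR adjusted p under 0.05, open points did not, and the dashed line is the median of all genes. Alas2 (-3.48) and Uros (-3.08) lie lowest, and Cpox (-0.54) lies closest to 0.

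Levels of different genes were compared per kilobase of exon. In AEL, Cpox stood first at 349 ± 92.8 CPM per kb, ahead of Alad at 121 ± 62.1 and Urod at 118 ± 58.5 CPM per kb (SD, n = 3 each), whose ranges overlap each other and not that of Cpox. Below them, Ppox at 57.9, Slc25a38 at 47.3, Fech at 41.1 and Alas2 at 37.7 CPM per kb had AEL means whose order is not set, since the ranges of Slc25a38 and Alas2 each overlapped those of the other 3. The ranges of Ppox, Slc25a38 and Alas2 also overlapped those of Alad and Urod in AEL, so these are not set apart either. Uros at 15.9 CPM per kb came next in AEL, within the range of Alas2, which ran from 11.9 to 81.5, and Alas1 at 4.73 CPM per kb stood last. In NC, Alad at 583, Cpox at 506, Urod at 438 and Alas2 at 421 CPM per kb led, and the range of Alas2, 359 to 494, overlapped those of Urod and Cpox. Ppox at 213, Slc25a38 at 175, Uros at 134, Fech at 116 and Alas1 at 9.28 CPM per kb followed in NC without overlap. Cpox had 18.6 to 27.0 times the per-kilobase level of Uros in AEL and 3.49 to 4.0 times in NC, a pair chosen after its values were seen. These levels rest on the union of annotated exons and shift if a gene uses shorter transcripts, as Fech with its 7198 bases may.

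AEL libraries did not keep 1 order over the pathway. Alas2, Alad, Urod and Cpox were highest in AEL replicate 1 and lowest in replicate 3, the order that hemoglobin mRNA also had, with 9917, 4383 and 2472 CPM summed over 5 hemoglobin genes in AEL replicates 1, 2 and 3 (46572 to 59866 CPM in NC). Alas1, Slc25a38, Uros and Ppox were instead highest in AEL replicate 2. With 3 libraries such orders are a description and were not tested.

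Alas1 and Slc25a38 lie on chromosome 9, where many genes were low in AEL replicates 1 and 3. Alas1 stood -1.42, -0.26 and -1.33 from its NC mean in AEL replicates 1, 2 and 3, on a log2(CPM + 2) scale. The median of 120 other genes within 10 Mb of it, at a mean of 10 CPM or more, stood at -0.98, -0.10 and -0.92. The difference between Alas1 and that median was -0.44, -0.16 and -0.41. Slc25a38 stood at -2.26, -1.08 and -2.80, and the median of 66 genes within 10 Mb of it at -0.93, -0.05 and -0.85. The difference between Slc25a38 and that median was -1.33, -1.03 and -1.95. The part of the region in either result was not tested. Alad, on chromosome 4, lies in a stretch whose 32 other genes had a median of -0.18, -0.20 and -1.0, the last in the AEL replicate 3 that was lowest for Alad at -3.51. For the other 6 genes the medians of nearby genes lay within -0.12 and 0.42 in every AEL library. The width of 10 Mb was chosen with these values known.

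**Figure D4:**
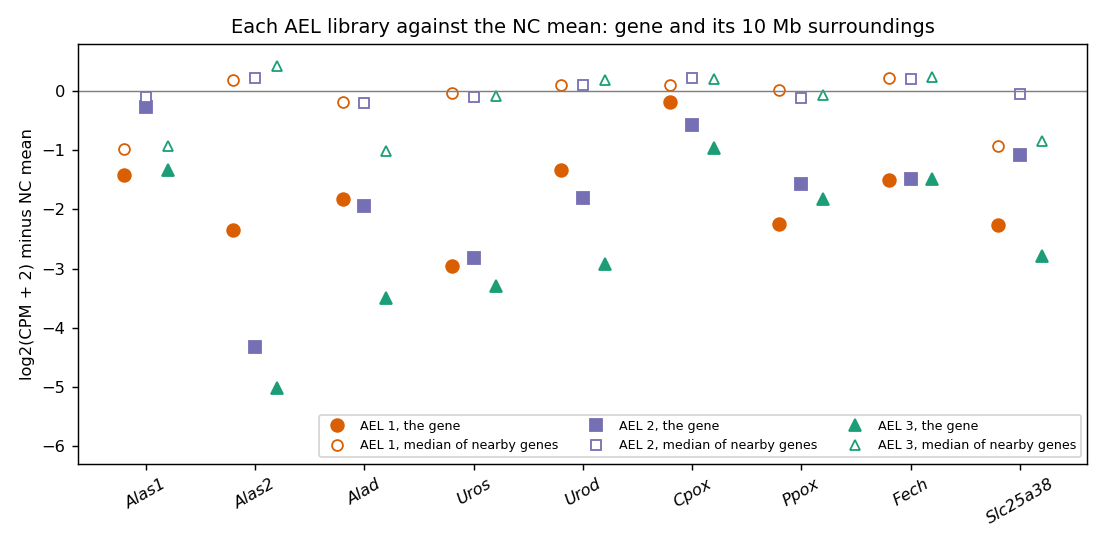
Distance of each AEL library from the NC mean on a log2(CPM + 2) scale, for the gene itself (filled) and for the median of the genes within 10 Mb (open), with 1 symbol per AEL replicate. For Alas1 the open symbols lie near the filled ones (-0.98 and -1.42 in AEL replicate 1), whereas for Alas2 they lie above 0, at 0.19 to 0.42, with the gene at -2.34 to -5.03.

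Promoter sequence was examined because most of the 9 genes moved together, and because GATA1 and KLF1, the main transcription factors of red cell precursors, are known to bind motifs near several heme synthesis genes. RefSeq (GRCm38.p6) gave 11 start sites for 8 of the 9 members. The 250 bases before each were searched on both strands for the GATA word AGATAA or its variant AGATAG, and for both with a first T, as TGATAA or also as TGATAG. Of the 11 windows 3 held such a word, at Alas2, the inner start site of Uros, and Cpox, as did 26.5% of 32851 windows of the same length over all genes. These 3 are printed because they hold the words, and the Alas1 window because it does not and belongs to the other isozyme; all run 5′ to 3′ along the gene's strand, and the capitals mark the GATA words, here read as their reverse complements.
Alas2 (chrX:150547167-150547416, plus strand): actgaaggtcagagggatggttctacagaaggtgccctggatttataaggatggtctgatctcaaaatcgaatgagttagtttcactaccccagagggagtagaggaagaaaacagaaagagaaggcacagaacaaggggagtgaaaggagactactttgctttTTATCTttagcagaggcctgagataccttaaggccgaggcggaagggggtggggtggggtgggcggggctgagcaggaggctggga
Uros inner start site (chr7:133702501-133702750, minus strand): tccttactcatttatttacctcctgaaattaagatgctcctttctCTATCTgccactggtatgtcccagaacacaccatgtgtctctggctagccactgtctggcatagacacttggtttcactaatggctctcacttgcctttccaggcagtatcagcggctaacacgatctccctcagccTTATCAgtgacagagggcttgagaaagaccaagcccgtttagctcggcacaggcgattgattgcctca
Cpox (chr16:58669958-58670207, plus strand): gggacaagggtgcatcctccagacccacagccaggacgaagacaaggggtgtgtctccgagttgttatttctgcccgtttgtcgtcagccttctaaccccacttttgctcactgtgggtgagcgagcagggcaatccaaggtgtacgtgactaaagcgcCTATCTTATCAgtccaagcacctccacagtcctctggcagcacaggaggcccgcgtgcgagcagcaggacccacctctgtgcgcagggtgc
Alas1 (chr9:106247955-106248204, minus strand): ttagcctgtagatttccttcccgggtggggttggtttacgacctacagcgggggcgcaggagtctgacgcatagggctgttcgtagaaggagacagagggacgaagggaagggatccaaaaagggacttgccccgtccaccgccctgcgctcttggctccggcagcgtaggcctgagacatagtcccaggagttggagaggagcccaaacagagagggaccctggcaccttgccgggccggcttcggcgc
In Alas2 the word begins 86 bases before the start site, in Cpox the words overlap at 91 and 86 bases before it, and at the inner start site of Uros they begin 205 and 68 bases before it. The genes with these words include the deepest falls (Alas2 and Uros) and the smallest (Cpox). Gene-level counts do not show which start site was used. The KLF word CCNCNCCC was in 7 of 11 windows and 45.9% of all windows; the Alas2 window holds 4 matches in a G-rich stretch, 3 of them overlapping. The ETS word CCGGAA was in 3 of 11 windows (Alad, Uros and Slc25a38) and 12% of all windows. Such matches describe letters and not binding.

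Most of the listed genes that work beside the enzymes in the mitochondrion fell as well. Of 18 genes for iron and porphyrin transport, iron-sulfur clusters and ALA synthase handling, 13 fell and 1 rose, with a median log2 fold change of -1.01; over all genes tested 29.0% fell and 23.9% rose. Slc25a37, the mitochondrial iron importer mitoferrin of red cell precursors, was at 504, 146 and 83.5 CPM in AEL replicates 1, 2 and 3, against 1018, 1104 and 1392 CPM in NC replicates 1, 2 and 3. Like Alas2 it was highest in AEL replicate 1. Its log2 fold change was -2.26 (SE 0.64, edgeR adjusted p = 0.0228), it was -3.26 without AEL replicate 1, and the call ended without any 1 NC replicate (edgeR adjusted p = 0.0615 to 0.0754). Abcb10, its stabilizing partner, fell by 1.73 (SE 0.25). Fam210b, a mitochondrial protein linked to iron supply for heme, fell by 1.69 (SE 0.29), and Tmem14c, a porphyrin transporter, fell by 1.58 (SE 0.24). Pgrmc1, a heme-binding protein reported to act on ferrochelatase, rose, with 97.7 to 158 CPM in AEL and 61.5 to 79.7 CPM in NC (log2 fold change 0.91, SE 0.20, edgeR adjusted p = 0.00951). That call ended without NC replicate 2 or 3 (edgeR adjusted p = 0.0537 and 0.0571), and 2 genes of this list rose without AEL replicate 3.

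The genes that supply glycine and succinyl-CoA went both ways. Of 10 tested, 4 fell and 4 rose, with a median of -0.01, beside 29.0% of all genes tested that fell and 23.9% that rose. Slc6a9, the plasma membrane glycine transporter of red cell precursors, had the deepest fall, with 46.4, 32.3 and 14.6 CPM in AEL replicates 1, 2 and 3, against 165, 163 and 219 CPM in NC replicates 1, 2 and 3 (log2 fold change -2.55, SE 0.40, edgeR adjusted p = 0.00246). Among the genes of enzymes that make or split glycine, Gcsh, Shmt1 and Shmt2 rose, and Dld, a subunit that the glycine cleavage system shares with other complexes, did not pass (log2 fold change -0.10, edgeR adjusted p = 0.578). Gcsh, a subunit of the glycine cleavage system, was at 45.0 to 82.8 CPM in AEL and 10.6 to 13.8 CPM in NC, 5.09-fold higher. Shmt1 and Shmt2, the cytosolic and mitochondrial enzymes that convert serine to glycine, were 4.02-fold and 2.19-fold higher. Of the succinyl-CoA genes, Suclg2, a ligase subunit, rose by 0.88 (SE 0.21), and Sucla2, another ligase subunit, fell by 0.61 (SE 0.20). Ogdh and Dlst, subunits of the enzyme complex that makes succinyl-CoA, fell by 0.43 (SE 0.11) and 0.34 (SE 0.10). These small falls depended on the scaling, and with library totals alone 1 gene of this list, Slc6a9, fell. Without a single library the number that fell was 1 to 3, and Suclg2 no longer passed without NC replicate 2 or 3 (edgeR adjusted p = 0.0524 and 0.0628).

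Among 9 tested genes of heme breakdown, transport and use in cytochromes, 3 fell and 2 rose, with a median of -0.25, which is near the share of all genes tested that fell (29.0%) and rose (23.9%), so the counts are no result about the list. Hmox1, the inducible heme oxygenase that opens the heme ring, was at 0.56, 3.04 and 1.74 CPM in AEL replicates 1, 2 and 3, against 823, 882 and 973 CPM in NC replicates 1, 2 and 3. It is strongly expressed by macrophages that digest red cells. All 8 macrophage markers fell as well, and C1qa was at 0.338 to 0.651 CPM in AEL and 425 to 470 CPM in NC. The neutrophil and B cell markers also fell, and the part of any cell type in the fall of Hmox1 was not tested. The log2 fold change of Hmox1 was -8.95 (SE 0.48, edgeR adjusted p = 9.8e-05). Blvrb and Blvra, reductases of the breakdown product biliverdin, fell by 1.70 (SE 0.28) and 1.66 (SE 0.15). The genes that rose were Cox10 and Hccs. Cox10, which starts the conversion of heme to heme A for cytochrome oxidase, was at 45.8 to 60.2 CPM in AEL and 18.1 to 21.2 CPM in NC (log2 fold change 1.43, SE 0.17, edgeR adjusted p = 0.001). Hccs, which attaches heme to cytochrome c, rose by 0.64 (SE 0.18, edgeR adjusted p = 0.0228), and its call ended without any 1 NC replicate (edgeR adjusted p = 0.0709 to 0.109). Cox15, which acts after Cox10 in making heme A, did not pass (log2 fold change 0.46, edgeR adjusted p = 0.165).

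Of 9 tested regulators of the pathway 2 fell and 1 rose (2 rose without AEL replicate 3), with a median of -0.23. Over all genes tested 29.0% fell and 23.9% rose, so with 9 genes these counts are no result about the list. Eif2ak1, the heme-regulated kinase that slows globin translation when heme is short, was at 180, 170 and 102 CPM in AEL replicates 1, 2 and 3, against 326, 356 and 392 CPM in NC replicates 1, 2 and 3. The AEL libraries all lay below the NC range, and the log2 fold change was -1.25 (SE 0.22, edgeR adjusted p = 0.00402). Klf1 fell by 0.91 (SE 0.17). Gata1, at 276 to 377 CPM in AEL and 388 to 443 CPM in NC, did not pass in edgeR (log2 fold change -0.39, adjusted p = 0.0702); it passed in DESeq2 (adjusted p = 0.0472) and, in edgeR, without AEL replicate 1 (-0.46, adjusted p = 0.0224).

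Aco1, which as iron regulatory protein 1 binds the element printed above, was at 184, 492 and 138 CPM in AEL replicates 1, 2 and 3, against 87.6, 96.9 and 96.8 CPM in NC replicates 1, 2 and 3. AEL replicate 2 carried much of the rise. The log2 fold change was 1.53 (SE 0.46, edgeR adjusted p = 0.0281), it was 0.85 without AEL replicate 2, and the call ended without any 1 NC replicate (edgeR adjusted p = 0.0989 to 0.111). Ireb2, iron regulatory protein 2, was at 74.0, 141 and 81.8 CPM in AEL replicates 1, 2 and 3, against 115, 116 and 117 CPM in NC replicates 1, 2 and 3. Its groups overlapped and it did not pass (edgeR adjusted p = 0.455); without AEL replicate 2 it was -0.50 and passed (adjusted p = 0.0131).

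Globin is the main protein that takes up the heme of red cell precursors. All 4 hemoglobin genes tested fell, beside 29.0% of all genes tested that fell and 23.9% that rose. Their median log2 fold change was -3.23, close to the values of Alas2 and Uros and below those of the other 7 heme synthesis genes. Globin genes exist in near-identical copies, among which reads may have been misplaced, and their fitted changes rest partly on AEL replicate 1, without which Hbb-bs stood at -4.84 in place of -4.0.

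**Figure D5:**
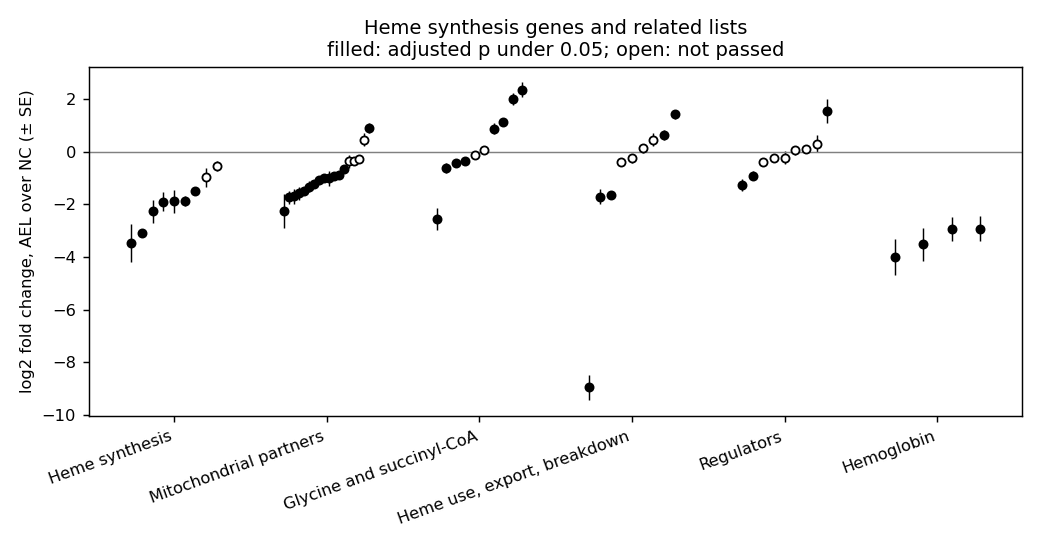
Fitted log2 fold change of AEL over NC with its SE for each tested gene of the heme synthesis group and the 5 related lists, sorted within each; filled points passed an edgeR adjusted p under 0.05. The heme synthesis and hemoglobin genes all lie below 0, the supply genes spread from -2.55 to 2.35, and the lowest point is Hmox1 at -8.95.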

How the data were processed

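The authors deposited 1 table of whole-number gene counts whose library sums differ, so they are not CPM despite the table's title; every gene exceeded 1 CPM in at least 2 libraries. Per the submitters' processing notes mm10 and edgeR 3.32.1 were used, with no role given; the sources used here name no aligner, counter or strand setting. The main test was edgeR 4.0.16 (R 4.3.3) quasi-likelihood, fitted on group with TMM scaling to genes reaching 1 CPM in 3 or more libraries, with Benjamini-Hochberg adjustment at 0.05. Fold changes are AEL over NC, and their SE was derived from the F statistic. CPM are counts over TMM-scaled totals. Limma 3.58.1 and DESeq2 1.42.0 were alternatives, and the edgeR script was tested on simulated data. Exon lengths came from GENCODE M21 (GRCm38, the assembly mm10 denotes) and promoters from RefSeq; Python 3.11.15 was used. The members and lists were chosen with earlier results of these data known. Named genes were the 9 members, up to 4 called genes per list and direction, Erg, Trp53, neighbours of members, and the 5 genes most like Alas2; Gata1, Ireb2, Dld, Cox15, Lonp1 and the marker genes named were added after their values were seen.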

Additional observations from a re-analysis of the deposited data

How the results depend on the processing

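Under all 16 alternatives the 9 heme synthesis genes had negative log2 fold changes and 0 were called higher; the 7 called lower kept that call in each, and the number called lower was 7 to 9 (7 to 8 without a single library). The difference in the log2 ratio of Alas2 to Alas1 ran from -3.89 to -2.28 without a single library, and the log2 ratio of the summed CPM from -1.58 to -1.26. Calls over all genes numbered 6563, and 3484 to 7087 without a single library, the lowest counts coming without an NC library. Over all genes the median log2 fold change was -0.05, and it stood at 0.14 when only library totals set the scale and at 0.11 after quantile normalization. Genes that did not pass changed sign: with library totals alone Dld stood at 0.087 and Bccip at 0.097, and without a single library Dld ran from -0.21 to 0.092, Bccip from -0.25 to 0.12, Ireb2 from -0.50 to 0.034 and Lonp1 from -0.067 to 0.24; the cause was not tested. Deviations of same-numbered samples from their group means were nearly uncorrelated over genes (0.047, -0.045 and -0.070), which does not settle whether these samples were paired. A replicate block gave 8 members lower, 2 in place of 4 supply genes lower, and 5479 calls over all genes. Alas1, with 111 to 320 counts per library, had the fewest counts of the 9 members in every library, and the part of depth in its result was not tested.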

Other observations

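By Pearson correlation of log2(CPM + 2) over the 6 libraries, among 8626 genes averaging at least 10 CPM, the 5 genes most like Alas2 were Klf1 (0.999), Samd11, Hbb-bt, Hdac5 and Rcbtb1 (0.998 each). These points share the gap between the groups as well as depth, so the measure describes likeness only. Without AEL replicate 1 the log2 fold changes were -4.10 for Samd11, -4.38 for Hbb-bt and -2.90 for Hdac5, against -3.04, -3.52 and -2.31 with it. Klf1 itself had a smaller change than Alas2 (-0.91 on the log2 scale), since the measure follows the order and spacing of the libraries and not the size of the change. Samd11 was at 12.9, 3.80 and 1.74 CPM in AEL replicates 1, 2 and 3, against 41.4, 46.0 and 63.7 CPM in NC replicates 1, 2 and 3. Hdac5, a class IIa histone deacetylase, was at 19.1, 8.57 and 4.94 CPM in AEL replicates 1, 2 and 3, against 52.6, 52.7 and 56.5 CPM in NC replicates 1, 2 and 3. Of the heme synthesis genes Urod was most like Alas2 (0.975, place 206) and Alas1 least (0.665, place 2878).

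Some members share ground with other genes. Apex2, a DNA repair nuclease gene on the opposite strand, shares 311 exon bases with Alas2, 15.3% of the exon bases of Alas2, and without strand their reads cannot be told apart there. Apex2 averaged 15.2 CPM over AEL and 20.7 over NC libraries; Alas2 was at 24.1 to 166 CPM in AEL and 731 to 1007 CPM in NC, so its lowest AEL library is not far above Apex2. Uros overlaps Bccip, which averaged 91.1 CPM over AEL and 97.5 over NC libraries (edgeR adjusted p = 0.657), and Ppox overlaps B4galt3 (log2 fold change -0.79, SE 0.14); neither pair shares annotated exon bases. Rpsa, a ribosomal protein gene 3185 bases from Slc25a38, averaged 208 CPM over AEL and 614 over NC libraries (log2 fold change -1.56, SE 0.37, edgeR adjusted p = 0.0125), a call that ended without NC replicate 1 (edgeR adjusted p = 0.0516). Nearest neighbours of other members went both ways. Pole3, 2731 bases from Alad, fell by 1.54 (SE 0.17), and Poc1a, 32407 bases from Alas1, fell by 1.25 (SE 0.20). Wdr7, 463138 bases from Fech, rose by 1.48 (SE 0.14). Hectd3, 904 bases from Urod, did not pass (log2 fold change -0.24, edgeR adjusted p = 0.153).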
